A study of Mus musculus with 2 samples.

Results

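Plasmacytoid dendritic cells (pDC) were examined among CD45-sorted immune cells from subcutaneous B16F10 tumours, a transplantable mouse melanoma. They were chosen by transcript: at least 5 molecules in sum of Siglech, Ccr9, Cox6a2 and Klk1, fewer than 10 of C1qa, C1qb and C1qc, and at most 1 of Cd3e, Cd3d and Trac, in cells that carried a single sample tag. Cells below 200 genes or above 25% mitochondrial transcripts had been set aside. The rule found 133 pDC among 10491 kept cells, of 14899 cells in all, with 49 in tag 8, 44 in tag 9 and 40 in tag 10. The tumours had grown from B16F10 cells with a Tyr knockout, from cells with an Oca2 knockout or from wildtype cells, under the skin of female C57BL/6 mice, 3 per tumour genotype. The mice themselves were C57BL/6, so the pDC were host cells and carried no stated allele. Each genotype had its own tag, the mice of a genotype were not separated, and all cells went through 1 capture. The labels do not say which tag marked which genotype. The 3 tags are therefore given side by side as samples of unnamed genotype, and no genotype was compared with another.

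pDC are dendritic cells that leave the bone marrow mature and circulate through blood and lymphoid organs. They take up nucleic acids into endosomes, where Toll-like receptors 7 and 9 read them, and are known as the strongest producers of type I interferon among leukocytes. Their identity is held by the E protein TCF4, which binds E-box DNA motifs and is opposed by ID2 in conventional dendritic cells (cDC). In tumours, pDC are often described as resting or poorly able to make interferon.

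Levels are given per tag as CPM, the summed molecules of a gene over all molecules of the class in that tag, scaled to 1000000, in the order tag 8, tag 9 and tag 10. The class totals were 258083, 232276 and 227894 molecules in pDC. A CPM of 3'-counted molecules was compared between classes for a gene, not between genes. A gene is called higher or lower where all 3 tags agreed on the direction and each showed a ratio of 2-fold or more, which is a rule of size and not a test. The comparators were conventional DC (109 cDC1 with at least 3 molecules of Xcr1 and Clec9a, and 188 cDC2 with at least 2 of Cd209a) and 232 B cells (at least 3 of Cd79a and Ms4a1), and comparator cells passed 1 such gate only.

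The sequences that follow are shown because TCF4 and the interferon-activated factors bind short DNA motifs, and because genes of both kinds differ below. Each is the stretch upstream of a start listed by RefSeq on GRCm38.p6, written 5' to 3' along the gene's strand and ended where an annotated exon of the gene begins. RefSeq starts can differ from those of GENCODE, and the Ccr9 start used here lies inside the longer GENCODE span given below. Capitals mark CAGGTG, an E-box read on either strand (CACCTG), or GAAANNGAAA, an interferon response motif read on either strand, of which adjoining matches run together. Siglech lies on the plus strand at chr7:55767934-55768177, Ccr9 on the plus strand at chr9:123766961-123767168, Klk1 on the plus strand at chr7:44225110-44225359, Bst2 on the minus strand at chr8:71537473-71537722 and Isg15 on the minus strand at chr4:156200819-156201068.
Siglech: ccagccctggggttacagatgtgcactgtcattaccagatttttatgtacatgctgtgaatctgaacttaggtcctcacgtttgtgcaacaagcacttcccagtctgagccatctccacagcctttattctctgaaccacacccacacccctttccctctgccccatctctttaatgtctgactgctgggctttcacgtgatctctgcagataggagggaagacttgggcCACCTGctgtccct
Ccr9: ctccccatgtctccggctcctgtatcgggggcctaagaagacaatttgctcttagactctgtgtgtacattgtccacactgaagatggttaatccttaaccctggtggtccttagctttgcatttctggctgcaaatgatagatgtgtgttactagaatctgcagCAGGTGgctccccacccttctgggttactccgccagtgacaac
Klk1: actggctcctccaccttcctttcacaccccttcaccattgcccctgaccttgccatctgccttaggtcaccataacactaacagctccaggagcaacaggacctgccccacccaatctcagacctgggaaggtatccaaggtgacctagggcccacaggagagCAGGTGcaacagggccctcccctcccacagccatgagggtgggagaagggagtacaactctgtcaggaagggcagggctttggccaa
Bst2: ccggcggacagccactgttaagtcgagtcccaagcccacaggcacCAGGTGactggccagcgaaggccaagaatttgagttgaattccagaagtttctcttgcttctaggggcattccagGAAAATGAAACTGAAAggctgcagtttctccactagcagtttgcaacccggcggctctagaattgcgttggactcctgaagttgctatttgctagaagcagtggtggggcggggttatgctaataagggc
Isg15: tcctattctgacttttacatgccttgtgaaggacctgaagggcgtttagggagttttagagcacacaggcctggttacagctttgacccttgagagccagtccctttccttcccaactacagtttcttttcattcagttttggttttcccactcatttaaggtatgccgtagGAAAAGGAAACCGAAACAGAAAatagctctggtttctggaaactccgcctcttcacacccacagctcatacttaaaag

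All 3 rule genes with a listed window, Siglech, Ccr9 and Klk1, held the E-box in the 250 bases before their RefSeq start, at 20, 85 and 87 bases from it. Among all 32851 windows of that length, of which a gene may have several, 17.2% held it. Of 46 windows of the pDC identity genes described below, 9 held it (19.6%), and of 19 windows of pDC lineage factors, 3 (15.8%). It stood in 19% of the 726 windows of genes higher in pDC than in conventional DC and in 13.1% of the 518 windows of lower ones. The interferon response motif stood in 12 of 26 windows of interferon response genes (46.2%), in 5 of 46 of identity genes (10.9%) and in 2.98% of all windows. Among windows of higher genes its share was 2.89%, and among those of lower genes 7.14%. These matches describe letters and not binding.

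Few cells lay near the limit of the rule. Of 6902 kept cells within the C1q and T cell limits, 6577 had no molecule of them, 149 had 1, 33 had 2 and 10 had 3 or 4. Just inside the limit, 5 cells had 5 or 6 molecules, and 123 of the 133 pDC had 10 or more, with a median of 37 and a highest value of 132. All 4 genes were seen in 76 pDC, 3 of them in 36, 2 in 19 and 1 in 2. Among kept cells with 5 molecules or more, the T cell limit left out 8 cells and the C1q limit 2.

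**Figure D1:**
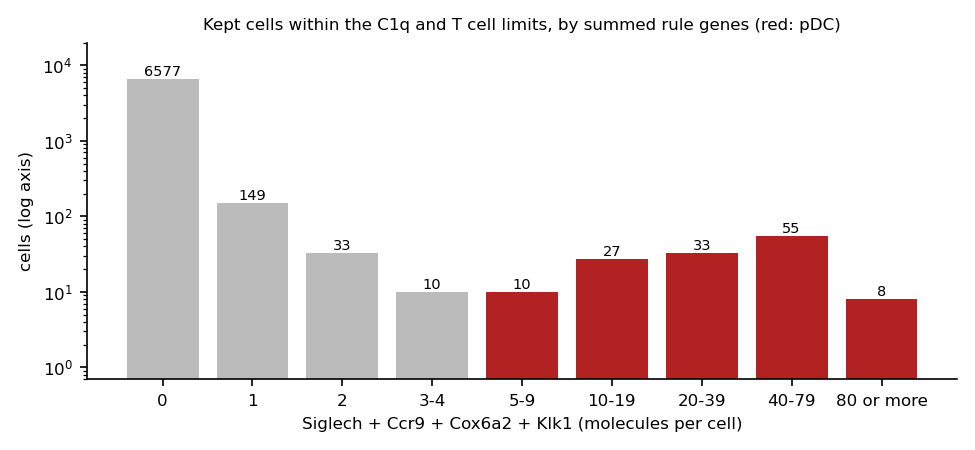
Number of kept cells within the C1q and T cell limits (y axis, log scale) by summed molecules of Siglech, Ccr9, Cox6a2 and Klk1 per cell (x axis), with pDC in red. The bars, which cover unequal ranges, show 10 cells with 3 or 4 molecules and 10 pDC with 5 to 9, a low stretch between the 6577 cells with none and the 123 pDC with 10 or more.

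These values chose the cells and are given as a description. Siglech, a Siglec receptor that signals through the DAP12 adaptor, had 3263, 2785 and 2949 CPM in pDC, against 10.4, 3.20 and 5.94 in conventional DC, and was found in 132 of 133 pDC. It is a protein-coding gene of 6 exons that spans bases 55768178 to 55778925 of chromosome 7, plus strand, on GRCm38. Ccr9, the receptor of the gut and thymus chemokine CCL25, had 2549.6, 2884 and 2615 CPM in pDC, against 12.1, 3.20 and 5.94 in conventional DC, and was found in 132 of 133 pDC. In GENCODE, Ccr9 spans bases 123678439 to 123784330 of chromosome 9, plus strand.

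Cox6a2, the heart and muscle form of a cytochrome c oxidase subunit, had 818, 809 and 667 CPM in pDC and 0, 3.20 and 1.19 in conventional DC. It spans bases 128205435 to 128206387 of chromosome 7, minus strand. Klk1, a tissue kallikrein protease, had 1073, 1094 and 1106 CPM in pDC and no molecule in conventional DC or B cells, which allows up to 1.02 CPM and 5.09 CPM there. It spans bases 44225360 to 44229618 of chromosome 7, plus strand. Its spread among pDC was wide, with 84 of 133 cells holding it and 0 to 59 molecules per cell. For each of the 4 genes, the highest of the 3 tags was less than 2-fold above the lowest.

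The label was checked on the fifth marker, Tcf4, which the rule did not read. Tcf4 had 2348, 1787 and 1659 CPM in pDC, against 138, 127 and 177 in conventional DC and 198, 338 and 184 in B cells. Every pDC value lay above every comparator value. Tcf4 was found in 130 of 133 pDC with a median of 10 molecules. With each cell thinned to 2000 molecules, 121 of 127 (95.3%, 90.0 to 98.2%) pDC held it, against 16 of 109 (14.7%, 8.63 to 22.7%) cDC1, 44 of 183 (24%, 18 to 30.9%) cDC2 and 44 of 151 (29.1%, 22 to 37.1%) B cells, with exact Clopper-Pearson 95% intervals. The unthinned shares were 97.7%, 38.5%, 50.5% and 30.6%, at medians of 5445, 14358, 6319 and 2267 molecules per cell. The data therefore do not go against the label.

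The pDC share of kept cells was 1.47% for tag 8, with an exact 95% interval from 1.09 to 1.94%. For tag 9 it was 1.26% (0.919 to 1.69%), and for tag 10 it was 1.09% (0.78 to 1.48%). The 3 intervals overlapped. As a share of pDC and conventional DC together, pDC made up 31.2%, 31.7% and 29.9%. The median mitochondrial share was 6.95%, 6.88% and 7.08% in pDC, against 4.47%, 4.32% and 4.69% in conventional DC. No cell index occurred more than once in the table.

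Molecules of other cell types were read as summed marker lists. Those of cDC1, 7 genes with Xcr1 and Clec9a among them, came to 185 to 268 CPM in pDC and 2120 to 2240 CPM in cDC1. Clec9a, a gene of the cDC1 gate, was found in 55 of 133 pDC (41.4%), with at most 4 molecules per cell. Markers of cDC2, 7 genes with Cd209a among them, came to 1094 to 1283 CPM in pDC. They came to 2879 to 3646 CPM in cDC2 itself and, with cDC1 mixed in, to 1429 to 1684 CPM in conventional DC. Of these genes, Clec10a, a lectin receptor, was found in 86 of 133 pDC (64.7%) and was not called. Cd7 and Sirpa were called higher in pDC than in conventional DC, and Mgl2, Itgam and Tnip3 lower. The Cd7 call was lost against cDC2 alone, and those of Cd7 and Sirpa with TMM scaling. Mgl2 and Itgam changed direction against cDC1 alone. Markers of transitional DC came to 917 CPM in pDC of tag 9 and 260 and 255 CPM in those of tags 8 and 10, against 1075 to 1310 CPM in conventional DC. That list includes Lyz2, of which 1 pDC of tag 9 held 139 molecules, so that cell raised the tag 9 value. Summed markers of NK cells, 7 genes, came to 11.6 to 21.5 CPM in pDC and of melanoma cells, 7 genes, to 34.4 to 52.7 CPM. T cell markers outside the rule, 7 genes, came to 30.7 to 56.0 CPM, against 10.7 to 26.7 CPM in conventional DC. Macrophage markers came to 399 to 465 CPM in pDC, against 362 to 682 CPM in conventional DC, with Trem2 at 0. Neutrophil markers, all 7 with a molecule, ranged from 34.9 CPM in tag 8 to 434 CPM in tag 10 among pDC, against 456 to 694 CPM in conventional DC. Monocyte markers came to 7148 to 9209 CPM in pDC and 2607 to 3118 CPM in conventional DC, and Ly6c2 and Plac8, which pDC are known to express, were the 2 called members of that list. A single pDC of tag 9 held 139 of the 194 Lyz2 molecules and 29 of the 30 Chil3 molecules of all pDC. A single pDC of tag 10 held 104 of the 120 Hspa1a molecules. Plasma cell markers, 6 genes, came to 160 and 234 CPM in B cells of tags 8 and 9 and to 5161 CPM in those of tag 10. Melanoma markers in conventional DC of tag 8 came to 1179 CPM and in the other tags to at most 41.6 CPM, and 1 conventional DC held 10 or more such molecules. The part of these molecules in the results was not tested, except that leaving out the 4 pDC with 10 or more myeloid molecules lost 2 of the 161 calls of named genes, Icosl and Usp18, and leaving out that conventional DC lost 1, Rrm2. Of the 133 pDC, 9 also passed the cDC1 gate and 12 the cDC2 gate, 20 cells in all, and none passed the B cell gate. Leaving out these 20 lost 8 calls, of Cd209d, Dhx58, Gpr183, Icosl, Ifih1, Tnfrsf1a, Unc93b1 and Usp18. Cells passing a gate for CCR7 DC held 3601 CPM of the fibroblast gene Col1a1, against 5.57 CPM in pDC, so that gate was not used as a comparator.

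Against conventional DC, 695 of 8109 genes were higher in pDC, 8.57% of the genes that reached 30 molecules in pDC and comparator together, and 510 were lower (6.29%). The median log2 ratio of all genes was 0.08. Against B cells, 531 of 5827 genes were higher in pDC (9.11%) and 346 lower (5.94%), with a median log2 ratio of 0.03. Rule genes and the genes of each comparator's gate stayed out of these counts, and a gene at 0 in a class was set at 3 molecules, so that its ratio is a bound. Where scaling used TMM factors, the split against conventional DC turned round, to 509 higher and 700 lower (42.1% of called genes higher, against 57.7% with CPM), and the median of all genes moved by -0.24 on the log2 scale. A call in the counts that follow was also lost in places when cDC1 or cDC2 alone served as the comparator, and those genes are named beside their group.

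Transcription factors known for pDC were mostly higher in these cells, and several known for cDC were lower. Of 15 factors known for pDC development, 14 had at least 30 molecules over pDC and conventional DC, 8 of these were higher and 1 was lower, where 8.57% of all genes were higher and 6.29% lower. Their median log2 ratio was 1.80, against 0.08 over all genes. Spib, an ETS factor needed for pDC function, had 872, 1025 and 891 CPM in pDC, against 13, 7.48 and 3.57 in conventional DC. It was at 0 in cDC1 of every tag, and its log2 ratio was 7.10 (6.07 to 7.96). Runx2, a factor for pDC exit from the bone marrow, had 686, 400.4 and 329 CPM in pDC and 37.2, 32 and 38 in conventional DC. Tag 8 was the highest of the pDC values, and the groups did not overlap.

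Irf8, shared by pDC and cDC1, had 1995, 2049 and 1992 CPM in pDC, against 949, 1101 and 803 in cDC1 and 178, 146 and 200.3 in cDC2. Its log2 ratio to conventional DC was 1.72 (1.53 to 1.95), and it was not 2-fold higher in each tag against cDC1 alone. Bcl11a, which sustains Tcf4 expression, had 287, 189 and 255 CPM in pDC and 38.9, 58.7 and 68.9 in conventional DC, a call lost against cDC2 alone. Ets1 had 291, 276 and 228 CPM in pDC, 20.8, 1.07 and 5.94 in conventional DC and 1412, 1447 and 968 in B cells, between the comparators. Mef2c and Xbp1, a driver of secretory cell programmes, had log2 ratios of 2.29 (2.08 to 2.57) and 2.18 (1.82 to 2.57) to conventional DC.

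Spi1, which encodes the myeloid factor PU.1, was the lower one, at 34.9, 60.3 and 65.8 CPM in pDC and 234, 253 and 256 in conventional DC. Irf7, the master factor of interferon induction, had 116, 142 and 167 CPM in pDC and 140.1, 124 and 119 in conventional DC. The Irf7 values of both classes overlapped. Zeb2 and Ikzf1 had log2 ratios of 0.68 (0.33 to 0.94) and 0.60 (0.53 to 0.71) and were not called. Against B cells, where 9.11% of all genes were higher and 5.94% lower, 7 of 13 factors were higher, namely Tcf4, Spib, Runx2, Irf8, Bcl11a, Cbfa2t3 and Xbp1. Ets1 was lower.

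Of 11 factors known for cDC, none was higher in pDC and 6 were lower, where 6.29% of all genes were. Their median log2 ratio was -1.78. Id2, the inhibitor of E proteins, had 34.9, 47.4 and 101 CPM in pDC, against 1154, 2075 and 1453 in cDC1 and 329, 406 and 318 in cDC2. Its pDC values lay below all comparator values, with a log2 ratio of -4.49 (-4.88 to -3.18). Zbtb46, a factor of the cDC lineage, had 0, 21.5 and 13.2 CPM in pDC and 29.4, 73.7 and 47.5 in conventional DC. Nfil3 and Rbpj, the nuclear partner of Notch, had log2 ratios of -2.53 (-2.66 to -1.81) and -1.91 (-2.57 to -1.33). Batf3, a cDC1 factor, rested on 2 molecules in pDC. The calls of Batf3, Bcl6 and Rbpj were lost against cDC2 alone. Irf4, Klf4, Relb, Mycl and Notch2 passed in neither direction.

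**Figure D2:**
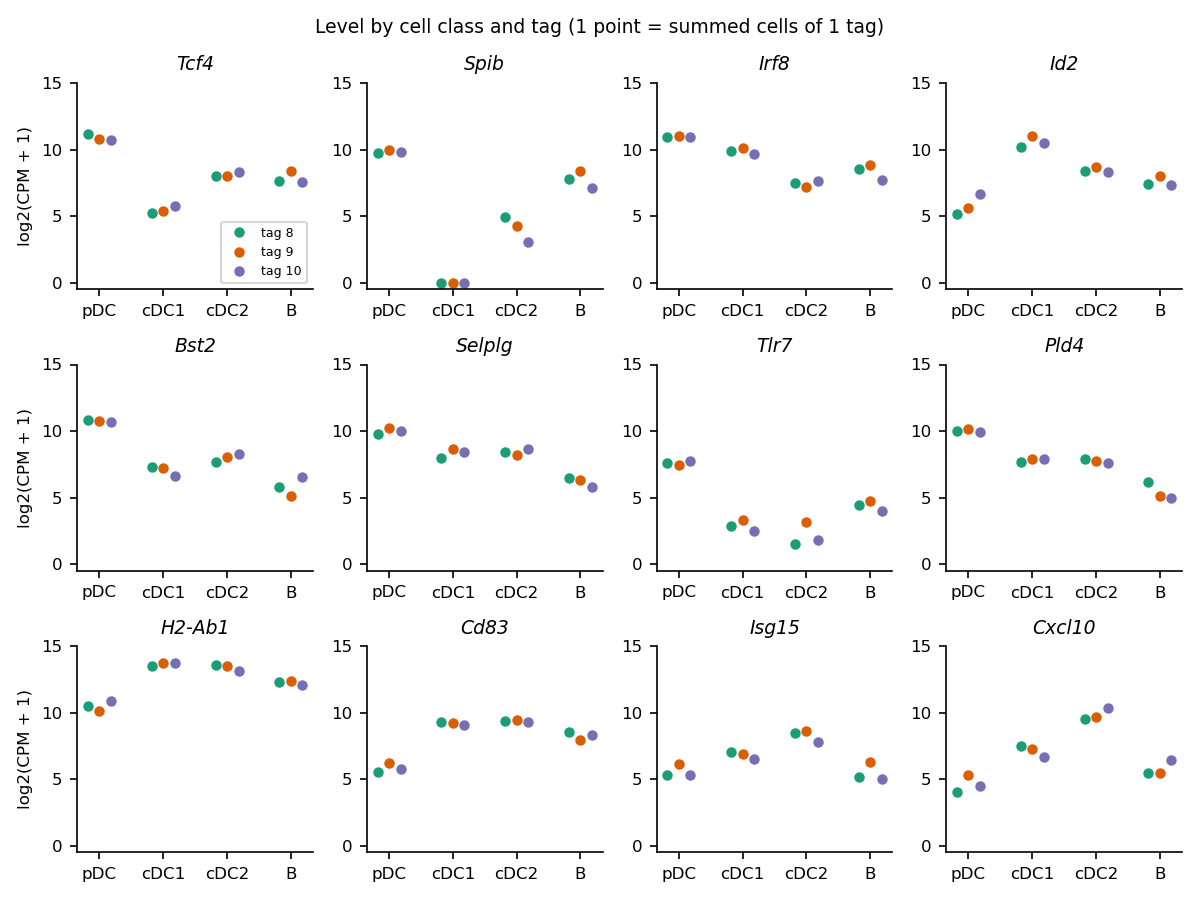
Level of 12 genes as log2(CPM + 1) on the y axis in pDC, cDC1, cDC2 and B cells (x axis), 1 point per tag. Tcf4, Spib, Bst2, Selplg, Tlr7 and Pld4 have all 3 pDC points above the other classes, and Id2, H2-Ab1 and Cd83 have them below.

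Surface and other genes known from pDC were nearly all higher. Of 43 such genes, 42 had enough molecules, 41 were higher than in conventional DC, where 8.57% of all genes were, and none was lower. The median log2 ratio was 4.38. The list was drawn up from pDC biology, so its direction follows from the choice of cells. Bst2, the antigen PDCA-1 used to sort mouse pDC and an interferon-inducible tetherin, had 1825, 1735 and 1676 CPM in pDC, against 177, 195 and 202 in conventional DC and 55.3, 34.6 and 92.2 in B cells. Ly6d, a marker of lymphoid progenitors, had 1124, 1068 and 1036 CPM in pDC, 0, 1.07 and 0 in conventional DC and 265, 537 and 415 in B cells, and was not called against B cells. Atp1b1, a sodium pump subunit, had 887, 775 and 658 CPM in pDC and 0.865, 3.20 and 2.38 in conventional DC.

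Pacsin1, an endocytic adaptor, had 213, 159 and 215 CPM in pDC and 2.60, 10.7 and 13.1 in conventional DC. Lag3, a checkpoint receptor that binds MHC class II, had 209, 133 and 189 CPM in pDC and 5.19, 9.61 and 25 in conventional DC. Lair1, an inhibitory collagen receptor, had 1031, 646 and 597 CPM in pDC and 35.5, 28.8 and 20.2 in conventional DC. The Lair1 value of tag 8 was the highest of the 3 among pDC. Cd300c had 515, 284 and 316 CPM in pDC and 6.92, 2.14 and 7.13 in conventional DC. Pltp, the phospholipid transfer protein, had 1131, 1042 and 1053 CPM in pDC and 44.1, 20.3 and 17.8 in conventional DC. Ctsl, a lysosomal protease, had 1042, 1033 and 908 CPM in pDC and 81.3, 27.8 and 40.4 in conventional DC.

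Ly6c2 is shared with monocytes. It had 3603, 4723 and 3598 CPM in pDC, against 346, 291 and 544 in conventional DC. Ly6c2 molecules may be split with its near-identical neighbour Ly6c1, so the gene is uncertain between them. Ly6e missed the call by 1 tag, with a log2 ratio of 1.18 (0.98 to 1.20). The calls of Cd7, Cd209d, Ly6a and Plac8 were lost against cDC2 alone, where cDC2 had 397, 305 and 521 CPM of Cd7, and those of Cd7, Cd209d and Plac8 also with TMM factors. Against B cells, 34 of 42 were higher, where 9.11% of all genes were. The 8 others were Ly6d, Fcrla, Sh3bgr, Spns3, Blnk, Ly6e, Ptprcap and Iglc3.

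By the size of the ratio to conventional DC, the 15 leading genes with at least 50 pDC molecules were Ly6d, Cd4, Atp1b1, Sla2, Sema4b, Mctp2, Spib, Cd8b1, Igkc, Rpgrip1, Atp2a1, Gm21762, Dll4, Hsd11b1 and Iglc3. Sla2, an adaptor that dampens antigen receptor signals, had 283, 353 and 233 CPM in pDC and 0.865, 2.14 and 1.19 in conventional DC. Dll4, a Notch ligand, had 143, 99 and 109.7 CPM in pDC and 0.865, 1.07 and 3.57 in conventional DC. Atp2a1, the fast-muscle calcium pump, had 248, 332 and 351 CPM in pDC and 1.73, 3.20 and 0 in conventional DC. Over all other kept cells, the 15 leading genes were Dntt, Gm21762, Chdh, Smim5, Klk1b27, Cd300c, Paqr5, Ly6d, Atp2a1, Cdh5, Iglc3, Ptprf, Pdzd4, Lefty1 and Spib. Cdh5, which encodes the endothelial junction protein VE-cadherin, had 136, 99 and 118 CPM in pDC, against 0, 0 and 1.19 in conventional DC. Lefty1, an inhibitor of Nodal, had 132, 189 and 154 CPM in pDC and 5.19, 2.14 and 9.51 in conventional DC.

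At the other end, 3 of the 10 strongest lower genes are given, chosen after their values were seen. Naaa, an amidase of fatty acid signalling lipids, had 3.87, 47.4 and 0 CPM in pDC and 1117, 1389 and 1091 in conventional DC. Klrb1b, a lectin receptor, had 3.87, 4.31 and 0 CPM in pDC and 247, 208 and 279 in conventional DC. Ifi205, of the interferon-inducible HIN family, had 3.87, 12.9 and 0 CPM in pDC and 429, 568 and 462 in conventional DC. For these 3 genes, every pDC value lay below every value of conventional DC.

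The muscle-type subunit Cox6a2 was read beside its relatives. Cox6a1, the form made in most tissues, had 368, 340.1 and 276 CPM in pDC and 453, 488 and 448 in conventional DC. None of 11 other cytochrome c oxidase genes with enough molecules was called in either direction, and their median log2 ratio was -0.41. In the kallikrein family, Klk1b27 followed Klk1, with 116, 94.7 and 74.6 CPM in pDC and no molecule in conventional DC or B cells. Of the 41 pDC with Klk1b27, 6 lacked Klk1. Klk1 and Klk1b27 are near-identical, so molecules may be split between them. The other 5 measured members did not reach 30 molecules. Among Siglec genes, Cd33 was higher at 139, 151 and 136 CPM in pDC and 12.1, 15 and 20.2 in conventional DC.

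CD4 and CD8 genes were read next, since pDC can carry both without a T cell receptor. Cd4 had 562, 413 and 382 CPM in pDC, against 0.865, 1.07 and 2.38 in conventional DC, and was found in 88 of 133 pDC (66.2%). Cd8b1 had 349, 202 and 417 CPM in pDC and 0, 2.14 and 1.19 in conventional DC, and was found in 62 of 133 pDC (46.6%). Cd8a had 139, 164 and 171 CPM in pDC and 5.19, 10.7 and 5.94 in conventional DC, and was found in 48 of 133 pDC (36.1%). At 2000 molecules per cell, 59 of 127 (46.5%, 37.6 to 55.5%) pDC held Cd4, against 1 of 183 (0.546%, 0.0138 to 3.01%) cDC2 and 1 of 151 (0.662%, 0.0168 to 3.63%) B cells. Cd4 and Cd8b1 occurred together in 44 pDC, and 19 pDC had none of the 3 genes. The rule capped Cd3e, Cd3d and Trac, which 3 pDC held, while Trbc2, outside the rule, was found in 9.

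Genes of the B cell lineage split into those at 0 and those with many molecules. Ms4a1, Pax5 and Fcmr had no molecule in pDC, Ebf1 had 1, Cd79a 2 and Cd79b 7. Ighm, the immunoglobulin mu heavy chain, had 1538, 1477 and 1422 CPM in pDC, against 78.7, 108 and 108 in conventional DC and 3037, 3569 and 2872 in B cells. At 2000 molecules per cell, 115 of 127 (90.6%, 84.1 to 95%) pDC held Ighm, against 29 of 109 (26.6%, 18.6 to 35.9%) cDC1 and 36 of 183 (19.7%, 14.2 to 26.2%) cDC2. Igkc, the kappa light chain, had 581, 392 and 281 CPM in pDC, 3.46, 0 and 2.38 in conventional DC and 7829, 7744 and 6006 in B cells, and was found in 59 of 133 pDC. Tag 8 was the highest of the pDC values.

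Dntt, the terminal transferase of antigen receptor assembly, had 120.1, 99 and 149 CPM in pDC and no molecule in conventional DC or B cells. Iglc3, a lambda constant gene, had 384, 237 and 320.3 CPM in pDC, no molecule in conventional DC and 128, 165 and 108 CPM in B cells. It has near-identical neighbours, so its count is uncertain. Blnk, the B cell linker, had 236, 362 and 338 CPM in pDC, 10.4, 6.41 and 4.75 in conventional DC and 148, 139 and 192 in B cells. Fcrla had 329, 319 and 312 CPM in pDC and 338, 355 and 361 in B cells. Mzb1, a secretory chaperone of B and plasma cells, had 163, 77.5 and 92.1 CPM in pDC and 0, 1.07 and 1.19 in conventional DC, while the plasma cell gene Jchain had 1 molecule in pDC. Summed B cell markers came to 1724 to 2135 CPM in pDC and 13716 to 17558 CPM in B cells.

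Among genes of endosomal nucleic acid sensing, those higher in pDC were receptors, their carrier, a transporter and nucleases. Of 22 genes, 20 had enough molecules, 6 were higher than in conventional DC, 3 lower and 11 neither, with a median log2 ratio of 0.42. Over all genes, 8.57% were higher and 6.29% lower. Tlr7, the receptor for single-stranded RNA, had 189.9, 172 and 219 CPM in pDC, against 4.33, 8.54 and 3.57 in conventional DC and 20.4, 26 and 15.4 in B cells. At 2000 molecules per cell, 43 of 127 (33.9%, 25.7 to 42.8%) pDC held it, against 1 of 109 (0.917%, 0.0232 to 5.01%) cDC1. Tlr12, a mouse receptor for profilin, had 54.2, 73.2 and 48.3 CPM in pDC and 2.60, 4.27 and 3.57 in conventional DC. Tlr9, the receptor for CpG DNA, had only 7 molecules in pDC and 14 in conventional DC, too few for a ratio.

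Unc93b1, which carries these receptors to endosomes, had 759, 568 and 627 CPM in pDC and 243, 267 and 251 in conventional DC, a call lost with TMM factors and against cDC1 alone. Slc15a4, an endolysosomal transporter needed for pDC responses, had 178, 207 and 149 CPM in pDC and 44.1, 59.8 and 42.8 in conventional DC. Pld4, a lysosomal nuclease that trims nucleic acid ligands, had 1054, 1145 and 969.7 CPM in pDC, 218, 232 and 218 in conventional DC and 69.9, 34.6 and 30.7 in B cells. Its relative Pld3 had 42.6, 86.1 and 57 CPM in pDC and 18.2, 10.7 and 13.1 in conventional DC, a call lost against cDC2 alone. Myd88, the adaptor of Tlr7 and Tlr9, was lower, at 27.1, 47.4 and 61.4 CPM in pDC and 146, 129 and 140.3 in conventional DC. Tlr3, for double-stranded RNA, had 1 molecule in pDC and 76.6, 67 and 99.6 CPM in cDC1. It had no ratio against cDC2 alone. The kinases Irak1 and Irak4 and the ligases Traf3 and Traf6 were called in neither direction, with Irak1 at 0.16 (-0.01 to 0.29).

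Interferon genes themselves were almost absent from pDC. Of 20 type I and III genes listed, 11 were measured and the other 9 were not analysed here. In the 718253 molecules of all pDC there was 1, of Ifnl3, and none of Ifnb1 or of the 6 measured interferon alpha genes Ifna2, Ifna4, Ifna5, Ifna13, Ifna16 and Ifnab. A gene with no molecule there has an upper limit of 4.18 CPM, 3 molecules of the total. Conventional DC had 19 such molecules in 2933613. All other kept cells, conventional DC among them, had 941 in 63025659, from 9 of the 11 measured genes. Both chains of the type I receptor were higher. Ifnar1 had 372, 332 and 228 CPM in pDC, against 84.8, 80.1 and 72.5 in conventional DC. Ifnar2 had 322, 353 and 145 CPM in pDC, against 42.4, 42.7 and 60.6 in conventional DC. The Ifnar2 call was lost against cDC2 alone. Ifngr1 and Ifngr2 were called in neither direction.

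Genes of the type I interferon response were lower in many cases and higher in none. Of 31 genes, 30 had enough molecules against conventional DC, 14 were lower, where 6.29% of all genes were, none was higher, and the median log2 ratio was -1.49. Isg15, a ubiquitin-like modifier whose upstream sequence is shown above, had 38.7, 68.9 and 39.5 CPM in pDC, against 129.8, 119.5 and 90.5 in cDC1 and 348, 388 and 220.3 in cDC2. Rsad2, the antiviral enzyme viperin, had 27.1, 8.61 and 30.7 CPM in pDC and 195, 110 and 84.4 in conventional DC. Slfn5 had 54.2, 73.2 and 61.4 CPM in pDC and 316, 286 and 307 in conventional DC. Zbp1, a nucleic acid sensor, had 15.5, 21.5 and 35.1 CPM in pDC and 84.8, 114 and 107 in conventional DC. The other lower genes were Ifit1, Ifit2, Mx1, Oas1a, Oasl1, Usp18, Rtp4, Ifih1, Dhx58 and Phf11d.

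The comparator mattered for this group, since Isg15, Ifit1, Ifit2, Rsad2, Oas1a, Usp18, Rtp4, Ifih1 and Phf11d were not 2-fold lower in each tag against cDC1 alone. Low counts also limited it: Ifit1 rested on 2 pDC molecules and Rtp4 on 4. Stat2, part of the factor that drives these genes, had 259.6, 319 and 303 CPM in pDC and 136, 219 and 185 in conventional DC. Ifi27l2a had 244, 387 and 342 CPM in pDC and 280.3, 374 and 393 in conventional DC. Neither was called against conventional DC. Against B cells, 16 genes had enough molecules, Ifi44 and Stat2 were higher and Ddx58 was lower. The median log2 ratio there was 0.08.

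**Figure D3:**
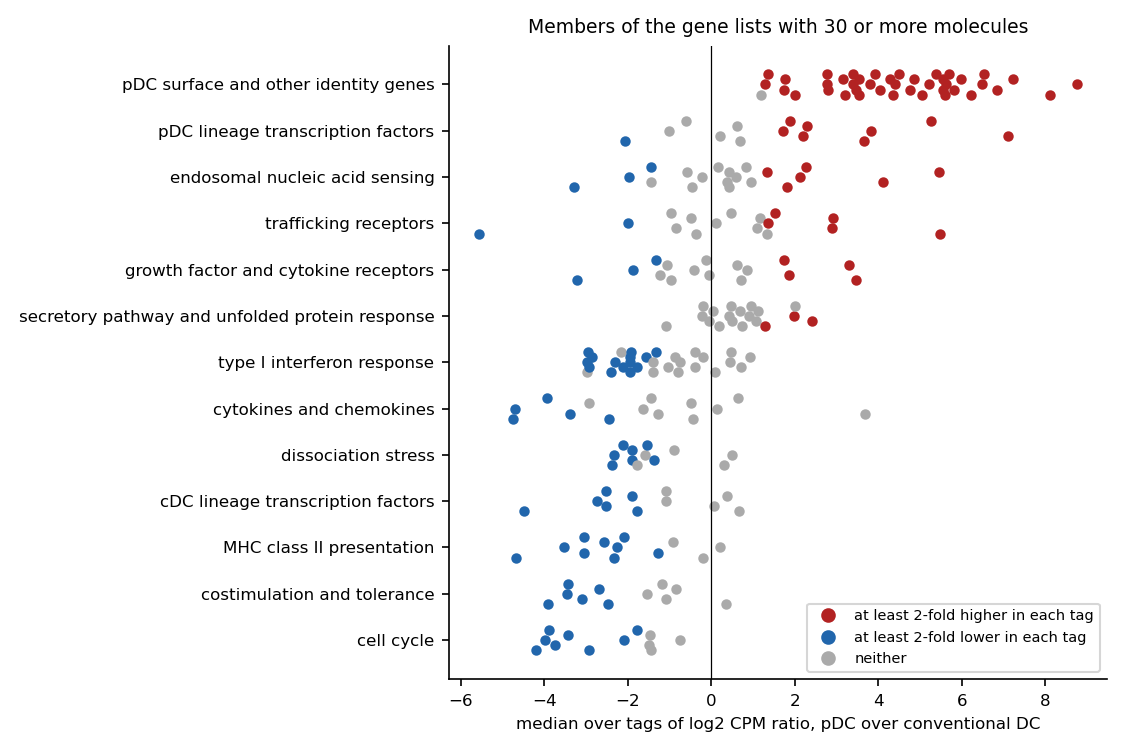
Median over the 3 tags of the log2 CPM ratio of pDC over conventional DC (x axis) for each list gene with at least 30 molecules, by list (y axis). Red points were at least 2-fold higher and blue points at least 2-fold lower in each tag, and 41 of 42 identity genes are red while the class II, costimulation and cell cycle lists hold no red point.

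MHC class II genes were lower in pDC than in conventional DC in most cases, and none was higher than in either comparator. Of 12 measured genes, 9 were lower than in conventional DC and none higher, with a median log2 ratio of -2.29. Against B cells, 6 were lower. The shares of all genes that were lower were 6.29% against conventional DC and 5.94% against B cells. H2-Aa, the alpha chain of I-A, had 1995, 1515 and 2040.4 CPM in pDC, 10029, 10730.4 and 9269 in conventional DC and 4719.8, 4807 and 4339 in B cells. H2-Ab1, its beta chain, had 1438, 1115 and 1843 CPM in pDC, against 11938, 12638 and 11351 in conventional DC. H2-Eb1 had a log2 ratio of -3.06 (-4.25 to -2.80), and Cd74, the invariant chain, one of -2.10 (-2.28 to -1.90). Pooled over tags, Cd74 had 2832 CPM in pDC (exact Poisson 95% interval 2710.1 to 2958) and 11963 CPM in conventional DC (11838 to 12088).

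Ciita, the class II transactivator, had 34.9, 4.31 and 13.2 CPM in pDC and 166, 137 and 151 in conventional DC. H2-Ob, a chain of the peptide-loading inhibitor DO, had 2 pDC molecules and 129, 144 and 112 CPM in conventional DC. The peptide-loading genes H2-DMb1 and H2-DMb2 were lower as well, with log2 ratios of -2.26 (-2.44 to -1.86) and -2.57 (-4.35 to -2.54). The call of March1, a ligase that removes class II from the surface, was lost against cDC2 alone. Ctss, the protease that trims the invariant chain, had 1182, 1477 and 1505 CPM in pDC and 1949, 1667 and 1740.1 in conventional DC, and H2-DMa and H2-Oa were not called.

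Costimulation followed the same direction. Of 11 genes with enough molecules, 6 were lower than in conventional DC, where 6.29% of all genes were, and none was higher. The median log2 ratio was -2.47. Cd83, a maturation marker, had 46.5, 73.2 and 52.7 CPM in pDC, 641, 633 and 574 in conventional DC and 381, 251 and 323 in B cells. Cd86, a ligand of CD28, had 15.5, 34.4 and 39.5 CPM in pDC and 251, 295 and 238 in conventional DC. Cd80, the other ligand of CD28, had 3.87, 8.61 and 8.78 CPM in pDC and 121, 130.3 and 91.5 in conventional DC. Cd40 and Tnfsf9, the 4-1BB ligand, had log2 ratios of -2.47 (-3.54 to -1.92) and -3.43 (-3.73 to -2.14), the Tnfsf9 call being lost against cDC1 alone. Icosl, a ligand through which pDC can prime regulatory T cells, had 7.75, 12.9 and 52.7 CPM in pDC and 90.8, 83.3 and 106 in conventional DC, a narrow call in tag 10 that was lost against cDC1 alone and in 6 further alternatives.

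Genes of pDC-mediated tolerance or killing had few molecules. Ido1, Ido2, Tnfsf10, Fasl, Prf1, Tnfsf4 and Pdcd1lg2 had none in pDC, which allows up to 4.18 CPM each, and Gzmb had 4. Cd274, the gene of PD-L1, had 54.2, 30.1 and 74.6 CPM in pDC and 124, 232 and 131 in conventional DC and missed the call in 1 tag. Tgfb1 had 34.9, 47.4 and 61.4 CPM in pDC and 30.3, 37.4 and 45.2 in conventional DC.

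Among cytokines and chemokines, 5 of 14 genes were lower than in conventional DC, where 6.29% of all genes were, and none was higher. The median log2 ratio was -1.55. Cxcl9, a ligand of CXCR3, had no molecule in pDC and 125, 338 and 594 CPM in conventional DC. Cxcl10, another, had 15.5, 38.7 and 21.9 CPM in pDC and 419.5, 428 and 658 in conventional DC. Cxcl16, the ligand of CXCR6, had 15.5, 0 and 0 CPM in pDC and 216, 234 and 201 in conventional DC. Il1b had 120.1, 177 and 483 CPM in pDC and 2268, 1845 and 1046 in conventional DC, and its call was lost against cDC1 alone. Ccl4, a chemokine, had 794, 633 and 807 CPM in pDC and 843, 410.2 and 491 in conventional DC, values that overlap. Ccl3 had 108, 194 and 667 CPM in pDC, and a single pDC of tag 10 held 68 of its 225 molecules. Il12a, the p35 subunit of interleukin 12, had 15, 9 and 3 molecules in pDC and 5, 0 and 0 in conventional DC, with no ratio in tag 10.

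Receptors for traffic and growth factors differed gene by gene. Of 16 trafficking receptors, 5 were higher than in conventional DC and 2 lower, with a median log2 ratio of 0.78. Over all genes, 8.57% were higher and 6.29% lower. With so few genes, the 2 lower ones do not set the list apart. Selplg, the P-selectin ligand, had 856, 1193 and 1014 CPM in pDC and 296, 355 and 372 in conventional DC. S1pr4, a sphingosine phosphate receptor, had 85.2, 94.7 and 118 CPM in pDC and 4.33, 2.14 and 2.38 in conventional DC. Cmklr1, the chemerin receptor by which pDC enter inflamed tissue, rested on 29 pDC molecules, with a log2 ratio of 2.88 (2.16 to 3.47). Gpr183, the oxysterol receptor, was higher at 1.35 (1.26 to 1.45), a call lost against cDC2 alone. Itgae, the cDC1 integrin CD103, had 2 pDC molecules, and Ccr7, the receptor for entry into lymph nodes, 11, with its call lost against cDC1 alone. Cxcr3 had 34.9, 30.1 and 21.9 CPM in pDC and 15.6, 12.8 and 21.4 in conventional DC and was not called.

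Of 16 growth factor and cytokine receptors, 4 were higher than in conventional DC and 3 lower, with a median log2 ratio of -0.10. Over all genes, 8.57% were higher and 6.29% lower, with a median of 0.08. Il7r, the interleukin 7 receptor, had 484, 284 and 417 CPM in pDC, 44.1, 47 and 27.3 in conventional DC and 29.1, 60.6 and 7.68 in B cells. Tgfbr1 and Tgfbr2 had log2 ratios of 3.29 (2.65 to 3.44) and 1.85 (1.68 to 2.64), the Tgfbr2 call being lost against cDC2 alone. Csf2ra, the alpha chain of the GM-CSF receptor, had 139, 146 and 140.4 CPM in pDC and 512, 520.2 and 512 in conventional DC. The neighbouring beta chain genes went apart, Csf2rb2 at 1.74 (1.41 to 1.76) and Csf2rb at -1.07 (-1.08 to -0.88), but they are near-identical and molecules may be split between them. Flt3, the receptor that maintains all DC, had 236, 172 and 237 CPM in pDC and 156, 188 and 140.3 in conventional DC, which overlap. Kit and Tnfrsf1a were lower, and the Tnfrsf1a call was lost against cDC1 alone.

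In ITAM and ITIM signalling, 3 of 18 genes were higher than in conventional DC, against 8.57% of all genes, none was lower, and the median log2 ratio was 0.40. With so few genes, that count does not set the list apart. Tyrobp, which encodes DAP12, the adaptor of Siglec-H, had 2844, 2777 and 2536 CPM in pDC, 1047, 993 and 910.5 in conventional DC and 192, 69.3 and 161 in B cells, a call lost against cDC2 alone. Ptpn6, the phosphatase SHP-1, had 426, 474 and 469.5 CPM in pDC and 151, 184 and 170 in conventional DC. Fyn had a log2 ratio of 1.45 (1.32 to 1.49), also lost against cDC2 alone. In the secretory pathway, 3 of 19 genes were higher and none lower, with a median log2 ratio of 0.68, a count that does not set this list apart from all genes either. They were Sec11c, a signal peptidase subunit at 1.28 (1.26 to 1.39) whose call was lost with TMM factors, Edem2, of glycoprotein degradation, at 1.97 (1.93 to 2.07), and Ern1, which encodes the XBP1-splicing sensor IRE1, at 2.40 (1.38 to 3.16). The chaperone gene Hspa5 had 1972, 1735 and 1935 CPM in pDC and 1991, 2188 and 2211 in conventional DC.

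Of 12 cell cycle genes, 8 were lower than in conventional DC, where 6.29% of all genes were, and none was higher. The median log2 ratio was -2.50. Mki67 and Top2a had 5 molecules each in all 133 pDC, and Rrm2 and Ccna2 had none. Pcna, a clamp of DNA replication and repair, had 143, 181 and 162 CPM in pDC and 232, 304 and 278 in conventional DC, was found in 68 of 133 pDC (51.1%) and was not called. The comparison moved with cDC1, in which Top2a had 211, 309.6 and 303 CPM, against 11.6, 49.5 and 2.50 in cDC2. The calls of Top2a, Stmn1, Birc5 and Ube2c were lost against cDC2 alone, and Cdk1 and Rrm2 had no ratio there. Early response genes tied to tissue dissociation were lower in 7 of 12 cases, against 6.29% of all genes, and higher in none, with a median of -1.68. Dusp1 had 54.2, 151 and 237 CPM in pDC and 741, 761 and 972 in conventional DC. Fos had 108, 228 and 228 CPM in pDC and 881, 632 and 997 in conventional DC. Against cDC1 alone the calls of Egr1 and Ier2 were lost, and those of Dusp1 and Fos were not. Of 9 survival regulators with enough molecules, 2 were lower, Bcl2l1 and Bcl2a1d, where 6.29% of all genes were. The other 7, Bcl2 and Mcl1 among them, were called in neither direction, and the median log2 ratio was -0.84. Bcl2l1 rested on 5 pDC molecules and Bcl2a1d on 16, of which 1 cell held 7. With so few genes, the 2 lower ones do not set the list apart.

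Among named genes, the spread between single pDC was highest in some inducible and class II genes, Lyz2, Ly6c2 and Klk1, though 1 cell set some of these values. The measure used also depends on the level of a gene, so it does not rank genes of unlike level. Thinned to 2000 molecules, 127 pDC could be compared, and the variance over the mean, which counting error alone would put near 1, was 2.14 for Siglech, 3.22 for Ccr9 and 4.82 for Klk1. It was 25.2 for Hspa1b and 10.7 for Lyz2, but 0.992 and 1.17 without the top cell of each. Ccl4 had 9.73 and, without its top cell, 6.65. H2-Aa had 5.38, and 4.76 without its top cell, with 36 cells at 0 and a highest value of 24 molecules. Cd74 had 5.06, and 4.71 without its top cell, with 20 cells at 0. The same pDC held the highest value of both genes and had no Siglech, Bst2, Ly6c2 or Ighm molecule after thinning. Ly6c2 had 5.12, and 4.89 without its top cell.

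Across these 127 cells, H2-Aa and Cd74 had a Pearson r of 0.77 and a Spearman rho of 0.73, and H2-Aa and H2-Ab1 of 0.85 and 0.84. Siglech and Tcf4 had 0.03 and 0.05. Klk1 and Cox6a2 had -0.08 and 0.05. H2-Aa and Ly6c2 had -0.17 and -0.30. The cells share 1 capture and the 3 tags, and these values are descriptions.

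**Figure D4:**
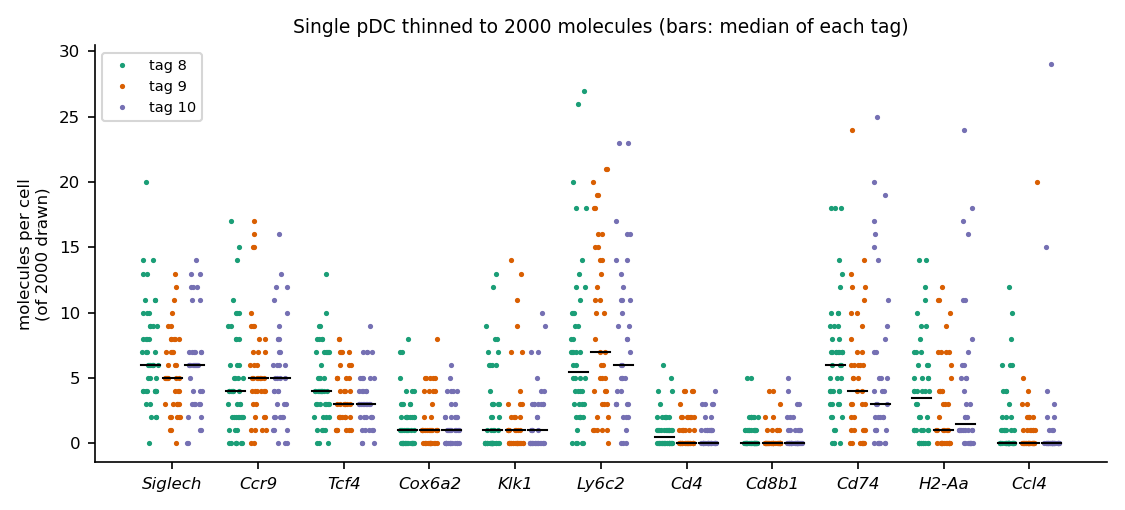
Molecules per pDC of 11 genes (y axis) after each cell was thinned to 2000 molecules, 1 point per cell, coloured by tag, with black bars at the median of each tag. Siglech, Ccr9, Tcf4 and Ly6c2 are present in nearly all cells of each tag, whereas H2-Aa and Cd74 reach from 0 to 24 and 25 molecules and Ccl4 is at 0 in 80 cells.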

How the data were processed

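Single-cell libraries were made with the BD Rhapsody whole transcriptome kit, and the deposited table held counts of unique molecules per gene and cell, made by the authors with the Rhapsody pipeline 1.9.1 on GRCm38 with GENCODE vM19, per the file headers. GRCm39, named in the submitters' processing notes, was not used. A deposited file gave the sample tag of each cell. Multiplet and undetermined cells were left out, and no further doublet caller was run. The table held 82187607 molecules of 24510 genes.

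The cells, gene lists and comparisons were chosen with earlier results of these data known. Molecules were summed per class and tag and scaled to CPM, and 0 was set to 3 molecules in ratios. Named genes were list members and the 15 leading genes per comparison. Exact Poisson and Clopper-Pearson 95% intervals cover counting error only, since cells of 1 tag are not replicates. No test was run: each unnamed genotype has 1 tag, and class ratios, taken within each tag, are described by size. The calling script was tested on simulated data. Alternatives changed the scaling (TMM from edgeR 4.0.16 in R 4.3.3), depth, thresholds, comparator and tags used. The scripts ran in Python 3.11.15 with pandas 2.3.3, numpy 2.4.6 and scipy 1.17.1, and matplotlib 3.10.9 drew the figures. Positions come from GENCODE on GRCm38 and upstream sequences from RefSeq on GRCm38.p6.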

Additional observations from a re-analysis of the deposited data

Results flagged for a closer look

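Outside the comparisons, 17 of 1271 cells with a multiplet tag call that passed the filters on genes and mitochondrial molecules also met the pDC limits, a share of 1.34% (exact 95% interval 0.781 to 2.13%). No such cell was found among 175 cells with an undetermined tag, for which the exact interval reaches 2.09%. The multiplet cells were noted because they lie outside the 3 tags and hold the pDC signal, and they entered no value of the report. Among kept cells with a single tag the pDC share was 1.27% (133 of 10491), which lies inside the interval of the multiplet cells.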

How the results depend on the processing

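With each cell thinned to 1000 molecules, 173 genes were higher and 186 lower in pDC than in conventional DC and 246 higher and 156 lower than in B cells. With a minimum of 100 molecules, 396 genes were higher than in conventional DC, and 301 were higher and 158 lower than in B cells. Fewer genes were compared in both settings. At a 3-fold limit, 351 were higher and 245 lower than in conventional DC, and 300 higher and 179 lower than in B cells. Every other count of genes in the alternatives run stayed within 1.5 times. Leaving out each tag gave 749 to 826 higher and 617 to 709 lower genes against conventional DC, 571 to 680 higher and 301 to 497 lower against B cells, and pDC shares of 1.17 to 1.36%. The share was 1.08 to 1.44% in the other alternatives. Without mitochondrial, ribosomal protein and immunoglobulin genes, the median of all genes against B cells moved by -0.14 on the log2 scale, with 471 higher and 416 lower.

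Of 161 calls of named genes against conventional DC, TMM factors lost 6 (Cd209d, Cd7, Plac8, Sec11c, Sirpa and Unc93b1), the mean of per-cell CPM 15, thinning 56 and leaving out a tag none. With thinning, 92 calls held, and the remaining ones gave no ratio. With cDC1 alone as the comparator, chosen after seeing the data, 19 calls were lost, and Itgam, at 0.58, and Mgl2, at 0.79, changed direction. With cDC2 alone, also chosen after seeing the data, 23 were lost and 133 held, and the remaining ones gave no ratio. The cause was not tested. No paired analysis was possible because the calls come from no test. Each ratio was taken within a tag, which pairs the classes already. The gene comparisons were not run with undetermined cells added, since none of them was a pDC. The pDC share was also taken with them added to the kept cells. With 40 to 49 pDC per tag, genes of low level could not be compared, and a gene with no molecule may be present at up to 4.18 CPM.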
